A study of Mus musculus with 4 samples.

Results

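Ubash3b, Crtam and Car2 were chosen because their transcripts were higher in invariant natural killer T (iNKT) cells of Hivep3-/- mice than in those of C57BL/6 mice in an earlier reading of the same libraries. They are 3 of the 31053 features of the count tables and were found there by symbol. The difference between the genotypes is therefore what selected these genes: it is given below as a description, with no test. The choice did not directly use their order across developmental classes within C57BL/6 cells, although the C57BL/6 level is a side of that difference. It also did not use the behaviour of the genes around them on the chromosome, related genes of their pathways or their presence together in single cells. Thymocytes reactive to PBS57-CD1d tetramers came from untreated mice of 8 to 9 weeks, were sorted so that CD44low and CD44high cells made up 50% each, and their RNA was counted cell by cell with droplet 5' chemistry. There were 2 libraries of C57BL/6 mice, the wildtype controls, and 2 of Hivep3-/- mice on the C57BL/6 strain, each from 1 mouse. No promoter or cell type that would limit the knockout is named. The sources used here do not say which exons of Hivep3 were removed, so its own UMIs, counted at the 5' end, do not check the labels.

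iNKT cells carry a nearly fixed T cell receptor (TCR) and are selected in the thymus by strong TCR signals at stage 0. They then divide and mature into iNKT1, iNKT2 and iNKT17 subsets, which resemble helper T cell types. Ubash3b encodes STS-1, a histidine phosphatase that removes phosphate from ZAP-70 and SYK, the first kinases downstream of the receptor, and so dampens TCR signals. Crtam encodes an immunoglobulin-family receptor for the adhesion molecule CADM1 that appears on activated cytotoxic and NKT cells. Car2 encodes cytosolic carbonic anhydrase II, which interconverts carbon dioxide and bicarbonate and is best known in red blood cells, osteoclasts and kidney.

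Ubash3b and Crtam are neighbours. In the mm10 assembly (GENCODE vM21) Ubash3b, identifier ENSMUSG00000032020, spans chr9:41011098-41161697 on the minus strand, and Crtam, ENSMUSG00000032021, lies downstream of it on the same strand at chr9:40969691-41004628. The gap between both genes was 6.469 kb and held 0 annotated genes. Car2, ENSMUSG00000027562, lies elsewhere, at chr3:14886273-14900770 on the plus strand. All 3 are protein coding.

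The 5' end of Ubash3b is shown because the HIVEP proteins bind kappaB-like sites and because transcription after TCR signals often uses NFAT. The RefSeq table (GRCm38.p6) held 2 transcript start windows of 300 bases for Ubash3b and 0 for Crtam and for Car2, which are named only. Capitals mark, on either strand, a kappaB-like match (GGG and CC spaced by 5 bases of any kind) or the NFAT core GGAAA, and no marked match overlaps another. Window 1 is chr9:41158013-41158312 and window 2 is chr9:41079457-41079756, both read on the minus strand, 5′ to 3′. Their upstream edges lie 3.385 and 81.9 kb inside the 5' end of the annotated gene.
Ubash3b window 1: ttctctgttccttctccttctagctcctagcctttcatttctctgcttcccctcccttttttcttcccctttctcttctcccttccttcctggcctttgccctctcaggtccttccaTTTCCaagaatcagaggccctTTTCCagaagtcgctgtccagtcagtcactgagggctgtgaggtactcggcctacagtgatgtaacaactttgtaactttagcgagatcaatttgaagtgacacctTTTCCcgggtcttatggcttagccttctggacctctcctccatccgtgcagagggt
Ubash3b window 2: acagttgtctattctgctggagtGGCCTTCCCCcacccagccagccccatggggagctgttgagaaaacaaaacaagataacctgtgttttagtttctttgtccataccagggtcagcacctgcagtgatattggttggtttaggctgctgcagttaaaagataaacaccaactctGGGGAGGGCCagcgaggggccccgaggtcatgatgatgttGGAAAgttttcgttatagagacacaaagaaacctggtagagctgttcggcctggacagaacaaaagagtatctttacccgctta
Window 1 held 0 kappaB-like matches and 3 NFAT core matches, and window 2 held 2 and 1. Of the 32851 promoter windows of the table, 50.8% held the kappaB-like letters and 61.3% the NFAT core, so a match in either window is common and describes only these letters.

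The 4 libraries held 4243 to 8374 cell barcodes and 31381738 to 48291764 UMIs, and 19647 cells of 22279 were kept. Median depth per kept cell was lower in the C57BL/6 libraries (4596 and 5268 UMIs) than in the Hivep3-/- libraries (6833 and 6491 UMIs). Shares of cells with a UMI were therefore compared after thinning each cell to 2000 UMIs, with shallower cells left out. C57BL/6 replicate 1 held 14609 Xist UMIs and 0 UMIs of Y-linked genes, against 3 to 25 and 3568 to 4879 in the other libraries, although the wildtype animals were described as female: sex and genotype were partly confounded, and C57BL/6 replicate 2 was alone among the controls in matching the knockout libraries. Without correction between libraries, one cluster led by the heat shock genes Hspa1a and Hspa1b came almost wholly from Hivep3-/- replicate 1 (1518 of 1592 cells). Pairs of libraries shared 18 to 43 cell barcodes. Cells were named from marker genes as stage 0-like (1465 cells, led by Itm2a, Cd24a, Myb and Lef1), cycling-like (2429), iNKT2-like (2753), iNKT17-like (616, led by Serpinb1a and Il23r), iNKT1-like (7287, in which an interferon-response cluster is included) and late iNKT1-like (2329, led by Ccl5, Gzma and Tyrobp). A further 2753 cells in 3 clusters stayed unnamed. The share of stage 0-like cells was 5.68% and 3.42% in C57BL/6 and 9.72% and 11.6% in Hivep3-/- libraries, and that of late iNKT1-like cells 6.51% and 7.59% against 18.1% and 18.0%, shares that the 50:50 sort partly sets. Levels are given in CPM, the UMIs of a gene per 1e+06 UMIs summed over the cells of a class in a library, and differences as log2 values fitted on those sums.

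Over all kept cells the genes differed in how far they were raised. Ubash3b had 1888 and 977 UMIs in C57BL/6 and 2756 and 2635 in Hivep3-/- libraries. Crtam had 71 and 44 against 617 and 585. Car2 had 7 and 7 against 411 and 345. Scaled to all UMIs of the libraries, these sums gave Hivep3-/- over C57BL/6 ratios of 2.03 for Ubash3b (95% interval 1.94 to 2.12), 11.3 for Crtam (9.30 to 13.8) and 58.2 for Car2 (34.5 to 107), where intervals cover counting error only. Ubash3b was thus a gene that C57BL/6 cells already transcribed, whereas Car2 was close to absent from them. On the map of all cells, UMIs of Ubash3b were in 2221 of 10876 C57BL/6 and 3126 of 8756 Hivep3-/- cells, those of Crtam in 97 and 649, and those of Car2 in 12 and 379.

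**Figure D1:**
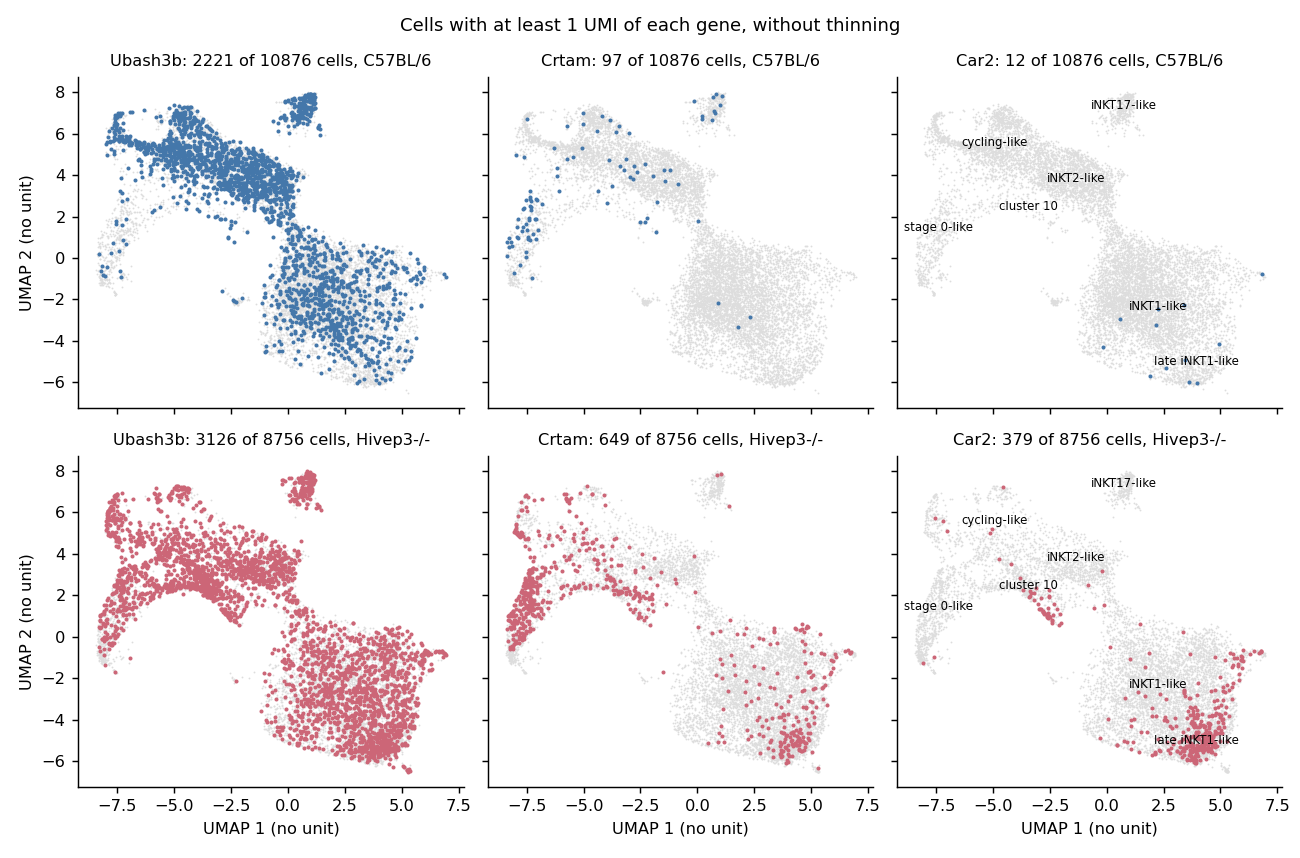
Cells with at least 1 UMI of Ubash3b, Crtam or Car2 (coloured) among all kept cells (grey) on a UMAP of the corrected components, whose axes have no unit, with C57BL/6 cells above and Hivep3-/- cells below. Ubash3b UMIs spread over the whole map in both genotypes, while those of Car2 sat in 379 of 8756 Hivep3-/- cells and 12 of 10876 C57BL/6 cells.

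In the order of Ubash3b across classes, stage 0-like and cycling-like cells stood higher in Hivep3-/- than in C57BL/6 libraries. In C57BL/6 cells it was 68.3 and 89.6 CPM in iNKT17-like, 60.8 and 56.2 in iNKT2-like, 36.0 and 30.2 in cycling-like, 31.8 and 33.4 in iNKT1-like, 23.8 and 23.3 in late iNKT1-like and 16.7 and 8.6 in stage 0-like cells (replicates 1 and 2). Only cycling-like and iNKT1-like cells overlapped in that order, and stage 0-like cells were lowest. In Hivep3-/- cells it was 117 and 116 CPM in cycling-like, 117 and 101 in iNKT17-like, 112 and 98.8 in stage 0-like, 97.2 and 79.3 in iNKT2-like, 60.0 and 45.1 in late iNKT1-like and 49.6 and 47.3 in iNKT1-like cells. There iNKT17-like cells overlapped both cycling-like and stage 0-like cells, which did not overlap each other, and the last pair overlapped.

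The order within C57BL/6 was tested, since the choice of the genes did not use it directly. The C57BL/6 level is a side of the difference that chose the genes. A low level in a class is therefore not fully independent of that choice. Against the mean of the other classes, Ubash3b was lower in stage 0-like cells (log2 difference -1.82, SE 0.20, adjusted p = 4.1e-08, edgeR quasi-likelihood test with Benjamini-Hochberg adjustment). It was higher in iNKT2-like cells (1.04, SE 0.10, edgeR adjusted p = 8.5e-09) and in iNKT17-like cells (1.37, SE 0.14, edgeR adjusted p = 2.9e-08). Many genes passed these contrasts: 20.9% of the 11094 genes tested were called lower in stage 0-like cells, 15.8% higher in iNKT2-like cells (9.56% lower) and 12% higher in iNKT17-like cells. Cycling-like cells (-0.02, edgeR adjusted p = 0.913) and iNKT1-like cells (-0.03, edgeR adjusted p = 0.891) did not pass. Late iNKT1-like cells were lower (-0.55, SE 0.18, edgeR adjusted p = 0.022, beside 15% of genes called lower), a call that was lost without C57BL/6 replicate 1 (-0.43, edgeR adjusted p = 0.32) and without C57BL/6 replicate 2 (-0.55, edgeR adjusted p = 0.075).

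Between the genotypes, Ubash3b was higher in Hivep3-/- libraries in every class, by very different amounts. The fitted log2 difference was 2.79 (SE 0.25) in stage 0-like, 1.65 (SE 0.15) in cycling-like and 1.10 (SE 0.22) in late iNKT1-like cells. It was smaller in iNKT2-like (0.49, SE 0.15), iNKT1-like (0.49, SE 0.14) and iNKT17-like cells (0.40, SE 0.21). Stage 0-like and late iNKT1-like cells were lowest in C57BL/6, but that level enters each difference, so no pattern is read from this. No class had overlapping libraries, and the share of all genes without overlap was not counted. For comparison, 0.899% of all genes tested were called between genotypes at stage 0, 2.99% among cycling-like cells, 0.22% and 0.0656% among iNKT2-like and iNKT17-like cells, and 0.658% and 0.308% among iNKT1-like and late iNKT1-like cells. The genes were picked for this contrast, so nothing is read from their place in it, and whether the difference varied between classes was not tested. Without Hivep3-/- replicate 1, the library with the heat shock genes, the stage 0-like difference was 2.75, and without C57BL/6 replicate 1, which leaves libraries with Y-linked UMIs alone, it was 3.47.

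**Figure D2:**
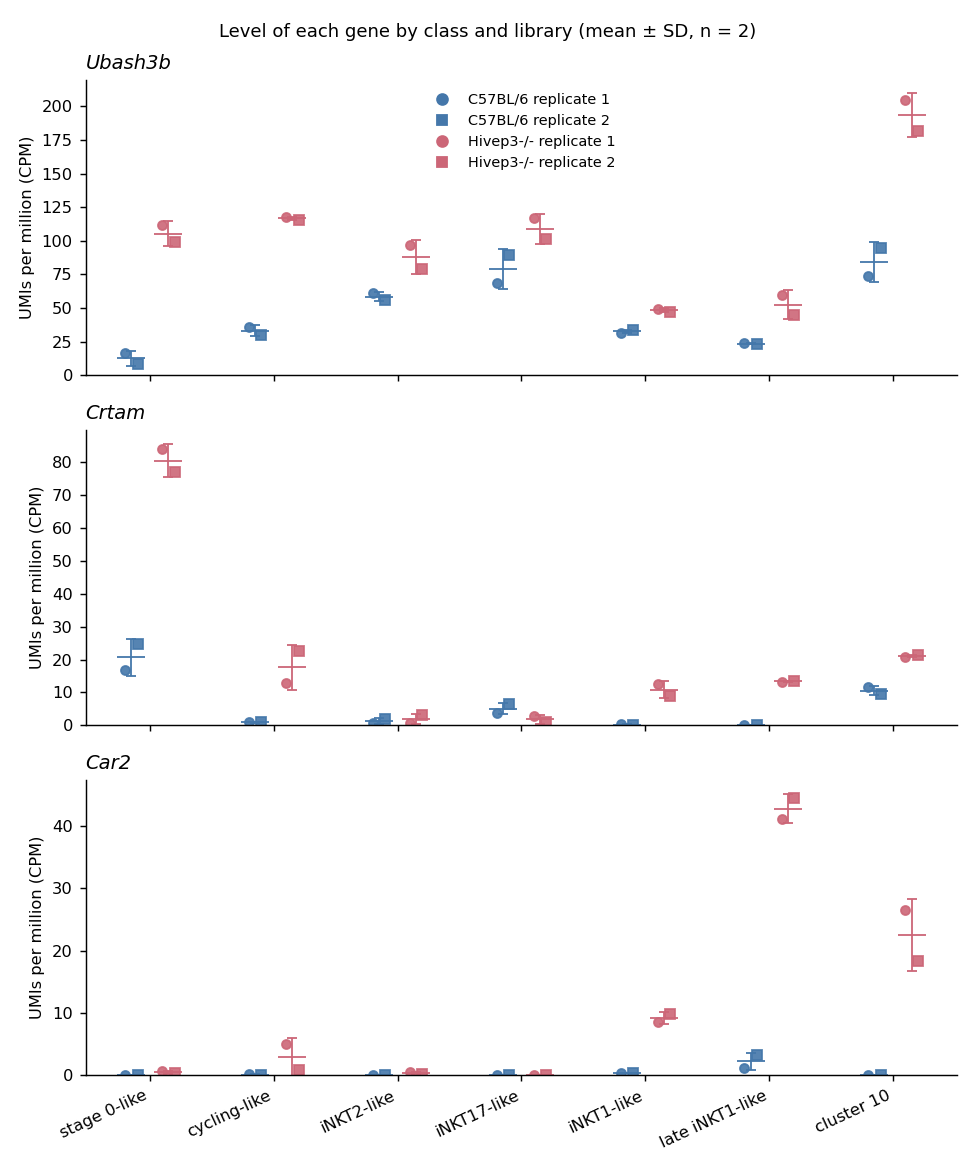
Level of each gene in CPM (y axis) by class and in the unnamed Tnni1 cluster 10 (x axis), with 1 point per library and bars for the mean ± SD of 2 libraries. Ubash3b in stage 0-like cells stood at 8.6 to 16.7 in C57BL/6 and 98.8 to 112 in Hivep3-/- libraries, and Car2 reached 41.1 and 44.4 in late iNKT1-like Hivep3-/- cells.

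The stage 0-like class was made of 2 clusters in which Ubash3b differed. Cluster 7, led by Itm2a, Lef1 and Slamf6, held 15.1 and 5.6 CPM in C57BL/6 and 123 and 108 CPM in Hivep3-/- cells. Cluster 11, led by Cd24a and holding the coreceptor genes Cd8a and Cd8b1 and Hivep3 itself among its 10 leading genes, held 24.9 and 30.7 against 46.9 and 41.0 CPM. The ratio of summed CPM was 9.39 (6.51 to 14.0) in cluster 7 and 1.68 (0.845 to 3.62) in cluster 11, whose C57BL/6 sums rest on 11 UMIs. Cluster 7 made up 61.3% and 68% of C57BL/6 and 69.4% and 66.6% of Hivep3-/- stage 0-like cells, so the mix of both clusters was alike. Ubash3b was higher still in cluster 10, unnamed and led by Tnni1, Klrb1a and Htra3, at 73.9 and 94.9 CPM in C57BL/6 and 205 and 182 CPM in Hivep3-/- cells. C57BL/6 replicate 2 had 11 cells there.

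The share of cells with a Ubash3b UMI followed the levels. At 2000 UMIs per cell, 3.15% and 1.77% of C57BL/6 and 16.9% and 13.9% of Hivep3-/- stage 0-like cells had one. Leaving out shallower cells kept 317 of 411 and 113 of 125 C57BL/6 stage 0-like cells, and 433 of 447 and 439 of 482 Hivep3-/- cells. In cluster 11 it kept 69 of 159 and 29 of 40 against 124 of 137 and 118 of 161, a loss that was uneven between libraries. In cycling-like cells the shares were 6.89% and 5.69% against 21.6% and 20.9%. In iNKT17-like cells they overlapped, at 11.4% and 18.9% against 19.7% and 19.2% with exact 95% intervals that were wide at these cell numbers. Unthinned, 7.30% and 5.60% of C57BL/6 and 38.5% and 34.4% of Hivep3-/- stage 0-like cells had a UMI, at median depths of 3875, 5446, 6237 and 5912 UMIs. Cells also held more of them: 0 C57BL/6 stage 0-like cells had 4 or more Ubash3b UMIs, against 26 and 14 Hivep3-/- cells, and 1 cycling-like Hivep3-/- cell had 12.

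**Figure D3:**
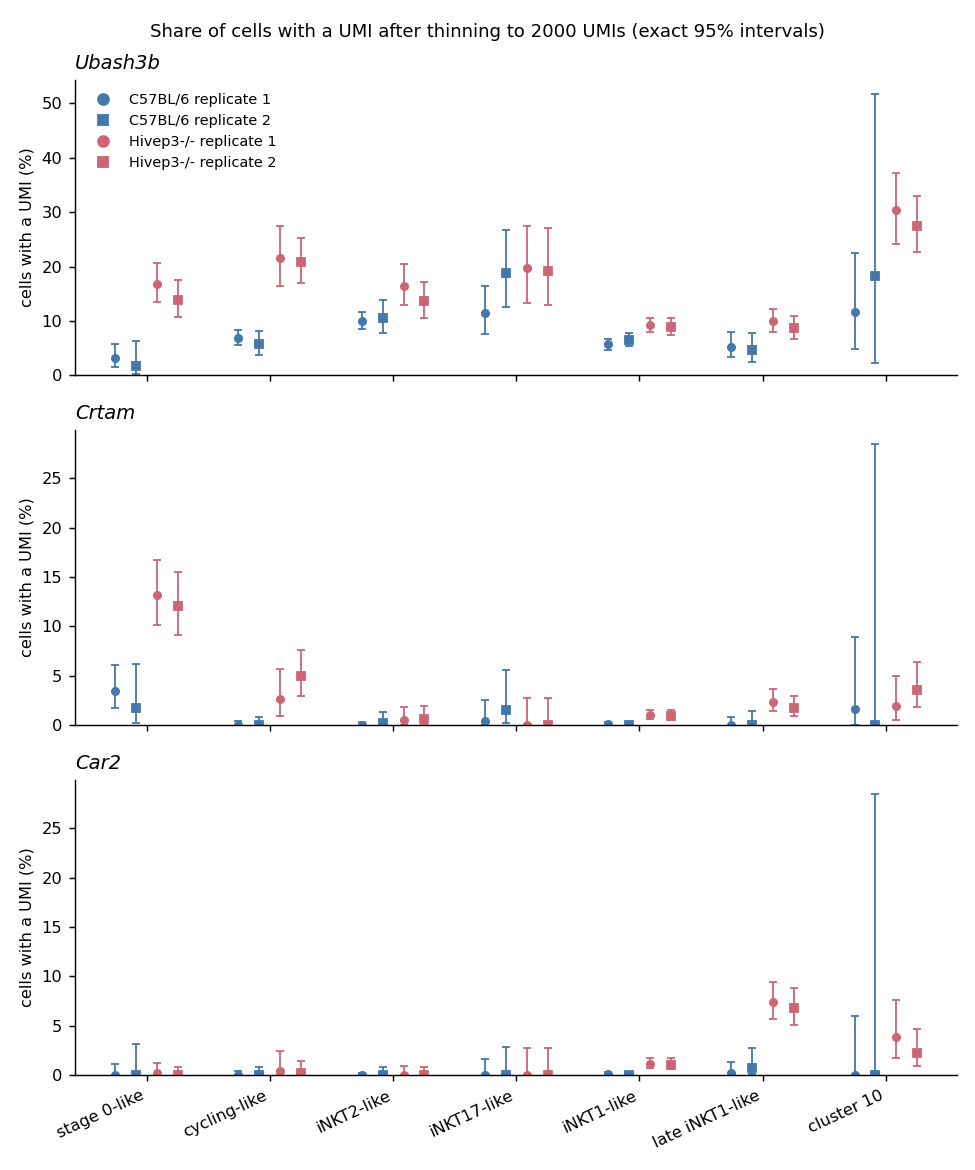
Share of cells with at least 1 UMI of each gene (y axis, %), by class (x axis) and library, with exact 95% binomial intervals. Cells were thinned to 2000 UMIs, and shallower cells were left out. For Crtam, 12.1% and 13.2% of stage 0-like Hivep3-/- cells had a UMI, against 1.77% and 3.47% in C57BL/6 libraries.

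Crtam was highest in stage 0-like cells in both genotypes, and in Hivep3-/- libraries it was also found in cycling-like, iNKT1-like and late iNKT1-like cells, which held few or no Crtam UMIs in C57BL/6. In stage 0-like cells it was 16.7 and 24.6 CPM in C57BL/6 and 84.1 and 76.9 CPM in Hivep3-/- libraries (log2 difference 1.93, SE 0.23, and 1.57 without C57BL/6 replicate 1). Within C57BL/6 it was higher in stage 0-like cells than in the other classes (edgeR adjusted p = 5.7e-09, beside 19.8% of genes called higher), and no fold is given because late iNKT1-like cells held 0 UMIs. Both stage 0-like clusters showed the difference, at 18.0 and 25.1 against 90.6 and 74.6 CPM in cluster 7 and 9.3 and 20.5 against 46.9 and 91.1 CPM in cluster 11.

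In cycling-like, iNKT1-like and late iNKT1-like cells of C57BL/6, Crtam was nearly silent. iNKT1-like cells held 3 and 1 UMIs in C57BL/6 and 174 and 79 UMIs in Hivep3-/- libraries, or 0.35 and 0.12 against 12.6 and 9.1 CPM, a ratio of summed CPM of 47.0 (18.1 to 174). The fitted log2 difference there was 5.35 (SE 0.45), and it ranged from 4.81 (C57BL/6 replicate 2 left out) to 6.27 (C57BL/6 replicate 1 left out). Late iNKT1-like cells held 0 and 0 against 70 and 59 UMIs, 13.3 and 13.5 CPM, at least 12.8-fold higher when C57BL/6 is set at 3 counts over the group. Cycling-like cells held 0.85 and 0.99 against 12.9 and 22.5 CPM (log2 difference 4.15, SE 0.41). The groups did not overlap in these 3 classes, for a gene chosen on this contrast and with the share of all genes without overlap not counted. In iNKT2-like cells (7 and 8 against 3 and 13 UMIs) and iNKT17-like cells (5 and 7 against 3 and 1 UMIs) Crtam was low. These classes hold too few molecules for a direction. The unnamed cluster 10 held 5 and 1 against 44 and 66 UMIs, or 11.5 and 9.5 against 20.9 and 21.3 CPM. Its ratio of summed CPM was 1.90 (0.844 to 5.28), an interval that includes equal levels.

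In iNKT1-like Hivep3-/- cells, Crtam was concentrated in few cells. There 12 of 1995 cells in replicate 1 and 5 of 1401 in replicate 2 had 4 or more Crtam UMIs and held 73.6% and 43.0% of the class's Crtam UMIs, with up to 19 and 15 in 1 cell. Of the 3 iNKT1-like clusters, Crtam was highest in cluster 4, led by the cytokine and granule genes Ccl1, Gzmb, Ccl4 and Xcl1, at 29.4 and 17.7 CPM in Hivep3-/- against 0.60 and 0 CPM in C57BL/6 libraries. The genes looked at in these cells were chosen after values had been seen. Tnfrsf9, which encodes the activation-induced receptor 4-1BB, had a UMI in 11 of 12 and 5 of 5 of them, against 12.0% and 12.6% of iNKT1-like cells without Crtam. The chemokine gene Ccl4 had one in 10 and 3 of them against 2.83% and 4.19%, and Rgs16, a regulator of G protein signals, in 11 and 3 against 0.72% and 1.47%. Nr4a1 was in 10 and 3 of them against 3.86% and 15.8%, and Xcl1 in 12 and 5 against 89.5% and 92.0%. Less alike between replicates were Egr2 (8 and 0 against 7.51% and 2.28%) and Lag3 (7 and 1 against 2.31% and 1.76%). Ifng was in 5 and 4 against 25.3% and 43.1%. The Crtam-rich cells were deeper, at medians of 9763 and 10322 UMIs against 6588 and 5779, and the part of depth in these shares was not tested. In stage 0-like cells the 13 and 10 Crtam-rich Hivep3-/- cells were read for the same genes: 0 of them held Ccl4, Ifng or Xcl1 UMIs. Tnfrsf9 was in 3 and 2 of them against 21.7% and 14.7% of stage 0-like cells without Crtam, and Nr4a1 in 8 and 3 against 47.1% and 30.6%. Lag3 was in 1 and 0 against 6.73% and 8.09%, and Rgs16 in 2 and 0 against 10.1% and 3.47%. Egr2, a TCR-induced factor, had a UMI in 10 of 13 and 7 of 10, against 66.7% and 32.9% of stage 0-like cells without Crtam in the same libraries, at median depths of 8618 and 10044 against 5555 and 4510 UMIs. The part of depth in this was not tested.

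At 2000 UMIs per cell, Crtam was found in 3.47% and 1.77% of C57BL/6 and 13.2% and 12.1% of Hivep3-/- stage 0-like cells. In iNKT1-like Hivep3-/- cells the shares were only 1.01% and 0.93%, with intervals that overlap the 0.51% and 0.66% of iNKT2-like cells in the same libraries. The C57BL/6 shares in iNKT1-like cells were 0.092% and 0.063%. In late iNKT1-like cells 2.34% and 1.76% of Hivep3-/- cells had a UMI, against 0 of 417 and 0 of 262 C57BL/6 cells, which allows shares of up to 0.719% and 1.15%.

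Car2 was raised mainly in iNKT1-like and late iNKT1-like cells and in the Tnni1 cluster, and not in stage 0-like cells. Late iNKT1-like cells, which express granzyme and NK receptor genes, held 2 and 4 Car2 UMIs in C57BL/6 and 217 and 194 in Hivep3-/- libraries, or 1.2 and 3.2 against 41.1 and 44.4 CPM (log2 difference 4.28, SE 0.39). With so few wildtype UMIs the difference ranged from 3.66 (C57BL/6 replicate 1 left out) to 5.04 (C57BL/6 replicate 2 left out). iNKT1-like cells held 3 and 3 against 117 and 86 UMIs, or 0.35 and 0.36 against 8.5 and 9.9 CPM (log2 difference 4.54, SE 0.40). Cluster 10 held 0 and 0 against 56 and 57 UMIs, 26.6 and 18.4 CPM, at least 3.90-fold higher with C57BL/6 at 3 counts over the group. Cycling-like cells also held more Car2 in Hivep3-/- libraries, at 2 and 0 against 15 and 4 UMIs. That was 0.12 and 0 against 5.1 and 0.77 CPM, uneven between the Hivep3-/- replicates. The ratio of summed CPM there was 27.4, which rests on 2 C57BL/6 UMIs. In the other classes Car2 was at or near 0. Stage 0-like and iNKT2-like cells each held 0 and 0 against 2 and 1 UMIs, and iNKT17-like cells 0 in every library. With 14 Car2 UMIs in all kept C57BL/6 cells, its order across C57BL/6 classes could not be tested.

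Car2 was found in 7.38% and 6.77% of late iNKT1-like Hivep3-/- cells at 2000 UMIs, against 0.24% and 0.76% of C57BL/6 cells. In the same Hivep3-/- libraries 0 of 132 and 0 of 130 iNKT17-like cells held it, at median depths of 8085 and 8188 UMIs against 6333 and 5731 in late iNKT1-like cells. The share of Car2 thus differed between these classes of a library, and the cause was not tested. In iNKT1-like cells the shares were 1.16% and 1.08% against 0.092% and 0.063%. Of late iNKT1-like Hivep3-/- cells, 13 and 9 held 4 or more Car2 UMIs, and the highest held 9. Because Car2 is abundant in red cells, erythroid markers were read beside it: Hba-a1, Hba-a2, Hbb-bs, Hbb-bt and Alas2 summed to 2 UMIs in each Hivep3-/- library over all kept cells, all 5 were at 0 in iNKT1-like and late iNKT1-like cells, and 0 of the 202 and 177 Car2-positive Hivep3-/- cells held any of them. Markers of double positive thymocytes were also higher in late iNKT1-like Hivep3-/- cells. The 8 genes summed to 7.93 and 13.7 CPM in C57BL/6 and 37.7 and 47.0 CPM in Hivep3-/- libraries there, with Rag1, Rag2, Ptcra and Arpp21 at 0 in all 4 libraries. In stage 0-like cells, which held 0 to 2 Car2 UMIs per library, the 8 genes summed to 99.4 to 161 CPM. Over all kept Hivep3-/- cells, without thinning, 14.4% and 15.8% of Car2-positive cells held a UMI of that list, against 7.98% and 10.3% of the others. B cell markers were also in more of them (69.8% and 59.3% against 50.6% and 42.2%), as were myeloid markers (68.3% and 70.1% against 61.9% and 64.8%). Gamma-delta T markers were in fewer (53.0% and 45.2% against 64.0% and 61.6%), and regulatory T markers in 5.45% and 1.69% against 5.28% and 4.19%. The part of depth in these shares was not tested, nor was the part of the double positive list in the Car2 difference. The B cell-like cells, 15 in all, held 0 UMIs of Ubash3b, Crtam and Car2.

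Only Ubash3b passed the filter on low counts in all 6 classes. Crtam passed in 4 and Car2 in 2, mostly through the Hivep3-/- libraries, so the number of classes that passed says nothing of the size of the difference.

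The neighbours Ubash3b and Crtam were both higher in Hivep3-/- stage 0-like cells, and how often they were found together there, against what their separate shares gave, depended on how depth was handled. In Hivep3-/- stage 0-like cells without thinning, 49 and 58 cells held UMIs of both, against 53.5 and 61.9 expected from the shares within 5 bins of depth (odds ratios 0.78 and 0.80). These bins were chosen after seeing the data, and with no bins the expected numbers were 46.2 and 46.8. At 2000 UMIs per cell the observed numbers were 13 and 9 against 9.61 and 7.36 expected with no bins. Of stage 0-like Hivep3-/- cells with Crtam, 40.8% and 42.6% also held Ubash3b, beside 38.5% and 34.4% of all stage 0-like cells. Cells of 1 library are not replicates, and these numbers carry no test.

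In mature cells Crtam and Car2 were found together more than their shares gave in 3 of 4 cases. In late iNKT1-like Hivep3-/- cells 20 and 17 cells held both, against 8.56 and 6.58 expected within depth bins (odds ratios 3.89 and 4.13). In iNKT1-like cells it was 13 against 1.89 in replicate 1, but 2 against 1.68 in replicate 2. Ubash3b and Car2 were together in 47 and 31 late iNKT1-like cells against 34.7 and 24.9 expected, and in 28 and 15 iNKT1-like cells against 16.2 and 9.76. Ubash3b and Crtam were together in 32 iNKT1-like cells against 15.99 in replicate 1, and in 13 against 10.8 in replicate 2. All 3 genes had UMIs in 11 and 7 late iNKT1-like and 8 and 1 iNKT1-like Hivep3-/- cells, and in 0 C57BL/6 cells of these classes.

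**Figure D4:**
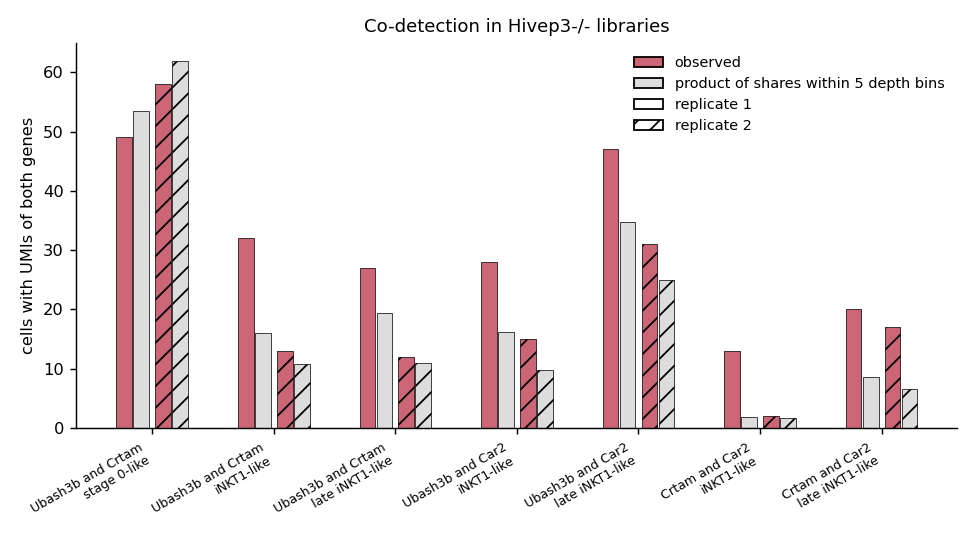
Number of Hivep3-/- cells with UMIs of both genes of a pair, without thinning (y axis), beside the number expected from the separate shares within 5 bins of depth, by pair, class and library (x axis). Ubash3b and Crtam in stage 0-like cells lay at or under the expected number (49 and 58 against 53.5 and 61.9), and Crtam and Car2 in late iNKT1-like cells above it (20 and 17 against 8.56 and 6.58).

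Across the 24 sums of 4 libraries and 6 classes, the members themselves did not follow one another: the Pearson correlation of log2(CPM + 1) was 0.22 for Ubash3b and Crtam, 0.01 for Ubash3b and Car2 and 0.26 for Crtam and Car2, and within the 12 Hivep3-/- sums it was 0.00, -0.79 and 0.19. The points share libraries and depth, so these are descriptions. Among genes averaging 20 CPM or more, those most like Ubash3b were Mdm2 (0.81), Cd9, Cd247, Def6 and Aagab. Those most like Car2 were Cldnd1 (0.86), Tyrobp, Tcirg1, Itgb1 and Cd48, of which Tyrobp, an adaptor of NK receptors, was also a leading gene of the late iNKT1-like class and Tcirg1 encodes a subunit of the proton pump. Those most like Crtam were Timmdc1 (0.86), Uso1, Zfp146, Far1 and Vps26a, and Timmdc1 ranged only from 12.8 to 43.6 CPM over all sums.

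Few of the genes around the members could be tested, and none of those was called. Within 1 Mb of Ubash3b and Crtam, 69 genes were annotated, of which 19 were protein coding and 36 were in the count tables, 25 of these with 0 UMIs. The 4 that could be tested in at least 1 class, Gramd1b, Hspa8, Sorl1 and Zfp202, were called in 0 classes by edgeR and by DESeq2, with 1 of 18 gene and class tests at an unadjusted edgeR p under 0.05 (Gramd1b in iNKT2-like cells). Gramd1b, with 91.2 and 97.1 CPM in C57BL/6 and 111 and 83.0 CPM in Hivep3-/- stage 0-like cells, differed there by -0.08 on the log2 scale (edgeR adjusted p = 0.937), where Ubash3b differed by 2.79. Of 28 genes within 1 Mb of Car2 (15 in the count tables), 1810022K09Rik, E2f5 and Lrrcc1 were tested and called in 0 classes by either tool, with 1 of 18 tests at an unadjusted edgeR p under 0.05. That test, also the largest of these differences, was of E2f5 in iNKT2-like cells, 1.16 (edgeR adjusted p = 0.374). A missed call does not show that these genes did not differ.

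**Figure D5:**
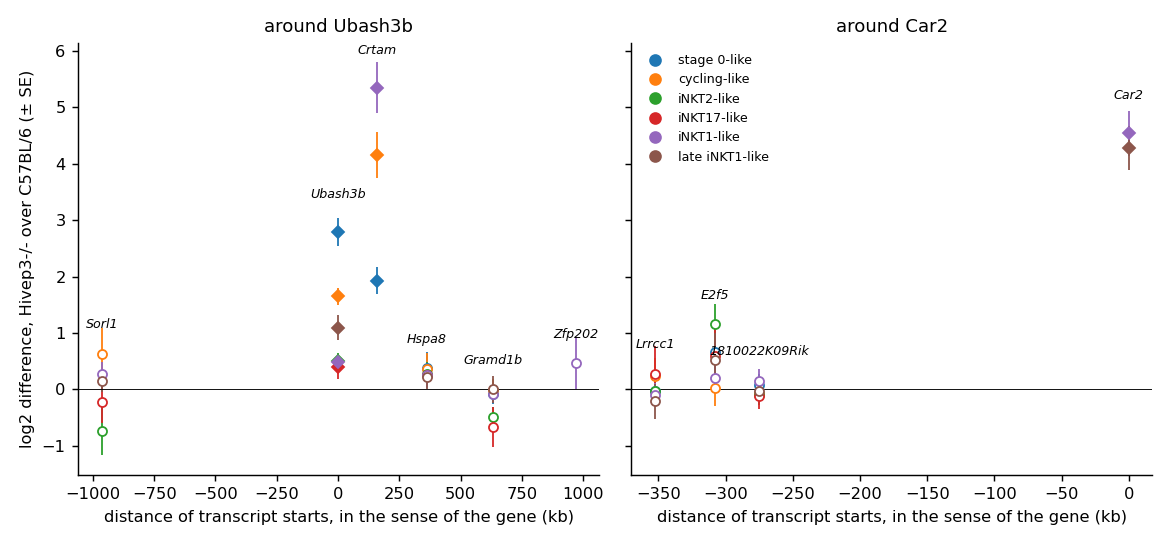
Log2 difference Hivep3-/- over C57BL/6 (y axis, ± SE) of genes tested within 1 Mb, against the distance of their transcript starts from that of Ubash3b (left) or Car2 (right) in kb (x axis), with 1 point per class. Ubash3b reached 2.79 and Crtam, 157 kb away, 5.35, while the neighbours stayed between -0.74 and 1.16; Crtam in late iNKT1-like cells is left out because its C57BL/6 libraries were at 0.

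The partners of STS-1 were read from lists chosen with earlier results of these data known. Of 21 genes that restrain TCR signals, 19 to 21 were tested per class, and calls were made in cycling-like cells alone. There Dgka, a kinase that removes diacylglycerol, rose (61.0 and 67.3 against 156 and 138 CPM, log2 difference 1.04, edgeR adjusted p = 0.013), and the adaptor gene Sit1 fell (62.2 and 60.6 against 40.0 and 33.8 CPM, -0.90, edgeR adjusted p = 0.027). The Dgka call was lost without C57BL/6 replicate 1 (0.96, edgeR adjusted p = 0.074). The Sit1 call was lost without C57BL/6 replicate 1 (-0.90, edgeR adjusted p = 0.109), C57BL/6 replicate 2 (-0.92, edgeR adjusted p = 0.077) or Hivep3-/- replicate 2 (-0.83, edgeR adjusted p = 0.062). The list's median log2 difference in cycling-like cells was 0.10, beside 0.03 over all genes tested.

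Ubash3a, the close relative of Ubash3b, was called in 0 of the 5 classes in which it was tested by edgeR or DESeq2, with 1 unadjusted edgeR p under 0.05, in cycling-like cells. In stage 0-like cells it was 25.01 and 30.7 CPM in C57BL/6 and 42.4 and 35.4 CPM in Hivep3-/- libraries (log2 difference 0.40, edgeR adjusted p = 0.658). In cycling-like cells it was 8.6 and 8.5 against 26.4 and 16.7 CPM (1.15, edgeR adjusted p = 0.063).

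Of 20 genes of the proximal TCR machinery, Cd247, the CD3 zeta chain, was the only one called, higher in 5 of 6 classes. The study had picked Cd247 on these samples, so its direction is not independent evidence. Its log2 difference was 1.13 at stage 0, 1.02 among cycling-like cells, 1.48 and 1.24 among iNKT2-like and iNKT17-like cells and 1.09 among iNKT1-like cells (edgeR adjusted p = 0.015, 0.015, 0.016, 0.018 and 0.015). Without Hivep3-/- replicate 1 the iNKT2-like call was lost (1.48, edgeR adjusted p = 0.074), and without C57BL/6 replicate 1 the iNKT1-like call (1.08, edgeR adjusted p = 0.153). Zap70, a substrate of STS-1, was 282 and 268 against 440 and 299 CPM in stage 0-like cells (0.29, edgeR adjusted p = 0.661). Syk, the other substrate, had 24 to 61 UMIs per library.

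Of 18 transcripts induced by TCR signals, Egr3 rose in stage 0-like cells (6 and 5 against 72 and 53 UMIs, log2 difference 2.20, edgeR adjusted p = 0.050), just under the threshold, and DESeq2 did not call it (2.14, DESeq2 adjusted p = 0.157). Nr4a2 rose in cycling-like cells (2.9 and 3.4 against 9.1 and 17.1 CPM, 1.98, edgeR adjusted p = 0.037). DESeq2 also called Nr4a2 in cycling-like cells, and beside it Cd69 and Dusp2 in cycling-like and Ifng and Nr4a2 in iNKT2-like cells, which edgeR did not call. The Egr3 call was lost without C57BL/6 replicate 1 (1.56, edgeR adjusted p = 0.462), and the Nr4a2 call without C57BL/6 replicate 1 (1.82, edgeR adjusted p = 0.086) or Hivep3-/- replicate 2 (1.36, edgeR adjusted p = 0.140). The list's median in stage 0-like cells was 0.33, beside 0.02 over all genes. Egr2 and Nr4a1 of this list had been picked by the study on these samples, so the list's median is not independent evidence.

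Of 16 genes of nectin-family receptors, ligands and CRTAM partners, 6 to 9 were tested per class. Tigit, an inhibitory receptor for nectin-like ligands, rose in late iNKT1-like cells, from 22.6 and 36.2 to 82.7 and 90.3 CPM (log2 difference 1.53, edgeR adjusted p = 0.020). That call was lost without C57BL/6 replicate 1 (1.2, edgeR adjusted p = 0.118) and without C57BL/6 replicate 2 (1.89, edgeR adjusted p = 0.157). Cadm1, the gene of the CRTAM ligand, had 1 to 4 UMIs per library.

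Of 31 carbonic anhydrases and carriers of bicarbonate, protons and lactate, 8 to 14 were tested per class. The proton exchanger gene Slc9a7 alone was called, in cycling-like cells (19 and 9 against 18 and 27 UMIs, log2 difference 2.05, edgeR adjusted p = 0.034). The call was not made by DESeq2, and it was lost without any one library (1.95 to 2.12, with edgeR adjusted p values of 0.198, 0.090, 0.120 and 0.105). Car1 and Car3, which lie beside Car2 on the chromosome, had 0 UMIs, and Car13, also beside it, had 10, 6, 4 and 6 UMIs per library. Car2 was chosen for its difference between genotypes, and these neighbours held too few UMIs for a direction, so Car2 is not set apart from them here.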

How the data were processed

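Droplet 5' RNA libraries of 4 mice, 2 per genotype, were analysed, with groups and replicate numbers from the labels. The authors deposited raw UMI counts per gene and cell barcode, made with Cell Ranger 3.1.0 on mm10, with no normalization (Seurat 3.1.4 is also named in the submitters' processing notes). The 3 genes and the 5 gene lists were chosen with earlier results of these data known.

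Cells with 500 to 4100 genes, at least 1000 UMIs and at most 6% mitochondrial UMIs were kept, and those with at least 3 B cell genes were set aside. Cells were clustered with Seurat 5.3.0 (2000 variable genes, 30 components, resolution 0.8) after mutual nearest neighbour correction between libraries. The members, Hivep3, 26 genes that the study named as differing, 6 sex-linked genes and TCR segments were left out of the clustering genes. Of 16 clusters, those with at least 3 markers of a type among their 20 genes of highest fold were named from them, and others by the mean fold of the markers, a scoring set after the data had been seen. The doublet caller of scanpy 1.11.5 marked 0 to 5 cells per library, too few to have worked, so cells with the highest 5% of scores were left out as an alternative.

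Counts were summed per library and class (813842 to 16404406 UMIs per sum) and tested with edgeR 4.0.16 (quasi-likelihood, TMM, filterByExpr), with p-values adjusted by Benjamini-Hochberg across every gene tested and calls under 0.05. The script was tested on simulated counts. Exact 95% binomial intervals for shares, 95% intervals for ratios of sums and the floor of 3 counts cover counting error only. Some marker genes are not reported here. Gene positions came from GENCODE vM21, in which 30934 of 31053 identifiers were found.

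Beside the members, the text names called genes of each list and of the neighbours within 1 Mb (at most 4 per list and class), Ubash3a, Cadm1, Car1, Car3 and Car13, and the 5 genes of most similar pattern. Zap70, Syk, Gramd1b and E2f5 were added after values were seen. Alternatives were DESeq2 1.42.0, no low-count filter, a replicate block (none for the class contrasts, which have the library as a block), each library left out, resolution 1.2, no correction between libraries, fewer cells by doublet score and other depths.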

Additional observations from a re-analysis of the deposited data

Results flagged for a closer look

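Crtam in iNKT17-like cells went the other way from 4 other classes. Its Hivep3-/- over C57BL/6 ratio of summed CPM was 0.361 there, from 5 and 7 UMIs in C57BL/6 and 3 and 1 UMIs in Hivep3-/- libraries, with a counting interval of 0.085 to 1.19 that includes equal levels. The libraries did not overlap (3.8 and 6.3 against 2.7 and 0.89 CPM), and the share of all genes without overlap was not counted. Whether iNKT17-like cells differed from the other classes was not tested.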

How the results depend on the processing

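The differences of the members between genotypes (11 gene and class pairs) were recomputed in 108 alternative values, of which 0 changed sign and 5 moved by more than the spread between replicates. Pairs with at most 3 C57BL/6 UMIs were left out. The genes were chosen for being higher in these same libraries, so an unchanged sign was likely beforehand and is no independent support. With no correction between libraries Ubash3b was 1.91 in cycling-like and 0.39 in iNKT1-like cells and Crtam 4.98 in cycling-like cells, and with 1 library left out Car2 in iNKT1-like cells ranged from 4.37 to 4.71 (log2 differences). Within C57BL/6, the lower Ubash3b level of late iNKT1-like cells was not called with no correction between libraries (-0.39) or at resolution 1.2 (-0.39), and with 1 library left out it ranged from -0.59 to -0.43.

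The numbers of genes called between genotypes moved far more: they were 83, 310, 21, 5, 68 and 28 in stage 0-like, cycling-like, iNKT2-like, iNKT17-like, iNKT1-like and late iNKT1-like cells. With no low-count filter they were 352, 1113, 358, 87, 313 and 164. The replicate numbers pair the mice only by name: deviations of same-numbered libraries correlated at 0.067 to 0.174 by class with 2 pairs, and with a replicate block the counts were 437, 616, 21, 34, 103 and 94 in that order. DESeq2 called 86, 9 and 106 among iNKT2-like, iNKT17-like and iNKT1-like cells. With no correction between libraries the counts were 20 in stage 0-like, 24 in iNKT1-like and 66 in late iNKT1-like cells, and at resolution 1.2 they were 24 in stage 0-like and 40 in iNKT2-like cells. With 1 library left out they ranged from 47 to 362, 196 to 270, 2 to 39, 11 to 70, 15 to 102 and 1 to 122 in the order above. In the class contrasts, genes called without the block (no replicate block) were 1276 for iNKT2-like and 2895 for iNKT1-like cells, and with 1 library left out they ranged from 2464 to 4589 (stage 0-like), 3978 to 6343 (cycling-like), 1128 to 2900 (iNKT2-like), 1269 to 2321 (iNKT17-like), 2858 to 4814 (iNKT1-like) and 2218 to 3672 (late iNKT1-like).

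The difference in the share of cells with a UMI depends on depth by construction. In percentage points it was 12.9 for Ubash3b in stage 0-like cells (30.01 without thinning, 8.03 at 1000 UMIs, 10.2 at resolution 1.2, and, in a split chosen after seeing the data, 16.3 in cluster 7 and 3.97 in cluster 11) and 14.9 in cycling-like cells (30.9, 9.20 and 12.9). It was 10.0 for Crtam in stage 0-like cells (18.1 without thinning, 3.75 at 1000 UMIs) and 0.89 in iNKT1-like cells (2.55 and 0.51), and for Car2 6.57 in late iNKT1-like cells (12.9 and 3.68) and 1.04 in iNKT1-like cells (2.55 and 0.61). Observed over expected cells with both genes went from 1.30 to 1.15 without thinning and 0.93 within depth bins (added after seeing the data) for Ubash3b and Crtam in stage 0-like cells, and from 2.68 to 6.29 without thinning for Crtam and Car2 in iNKT1-like cells. The causes of these shifts were not tested. With 2 mice per genotype, 14 Car2 UMIs in C57BL/6 cells and 12 and 4 Crtam UMIs in C57BL/6 and Hivep3-/- iNKT17-like cells, small differences were not detectable at this depth.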
